A study of Mus musculus with 16 samples.

Results

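A set of 9 genes that mark the change of fibroblasts into epithelial cells early in reprogramming were examined in 13 ChIP-seq libraries from mouse: Cdh1, Epcam, Krt8, Krt18, Esrp1, Cldn4, Cldn7, Ocln and Grhl2. They are 9 of the 21938 protein-coding genes of the annotation, and the rule that picks them is their symbol, with no measured value. Every summit, the base at which a called peak of factor binding is highest, was taken that lay in one of the gene bodies or within 50 kb to either side. This gave 132 of the 227116 summits in the series. Summits within 100 bp of one another were merged, which left 105 of 172918 sites. All coordinates are mm10 with GENCODE M21 genes.

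The cells were OG2 mouse embryonic fibroblasts, which carry GFP under the Oct4 promoter, and each group received Sox2 and Klf4 (abbreviated SK) by retrovirus along with a single POU protein. Oct4-SK cells were profiled for Oct4 on days 1, 5 and 7 and for Sox2 on days 1 and 5. Cells with Oct4defSox2-SK, whose Oct4 mutant does not pair with Sox2 on composite DNA elements, were profiled for both factors on days 1 and 5. Oct6-SK cells were profiled for Sox2 on days 1 and 5, Oct4 S151M-SK cells for Oct4 on day 1, and Oct6 M151S-SK cells for Oct6 on day 1. The last 2 proteins exchange the residue at which Oct4 and Oct6 differ in their ability to pair with themselves. The title of the Oct6 M151S sample gives day 1 and its characteristics give day 2. Day 0 was the change to defined medium. No sort is named for these samples, so infected, uninfected and unequally reprogrammed cells cannot be told apart. Each group was 1 library, so no difference below was tested, and the intervals cover counting error only. Libraries held 1038 to 101170 summits, and these lists give no read depth.

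In the mesenchymal-epithelial transition, fibroblasts lose their spindle shape and take up cell-cell junctions. E-cadherin, the product of Cdh1, joins neighbouring cells at adherens junctions, and claudins and occludin seal the tight junctions. Keratins 8 and 18 pair as the first intermediate filaments of simple epithelia. The transcription factor Grhl2 and the splicing factor Esrp1 maintain the epithelial program, whereas Snai, Zeb and Twist factors repress it. Epcam is a surface adhesion protein of epithelia and of pluripotent cells.

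Of the 105 sites, 90 held a summit in 1 library, 9 in 2 libraries and 6 in 3 or more. Of those 6, 4 lay in the introns of Grhl2 or beyond its 3′ end. The share of sites seen in 1 library was 85.7%, against 84.2% over the whole series. The sequences below show the 3 sites that recurred most within a gene's window and had at least 3 libraries, and the 2 sites within 1 kb upstream of a gene start. The Grhl2 downstream, Krt8 repeat and Esrp1 sequences were added after their values were seen. Each is 201 bp centred on the highest-ranked summit, read 5′ to 3′ on the plus strand of the RefSeq GRCm38.p6 assembly, with capitals marking a motif match.
Grhl2 intron, chr15:37317907-37318107, Sox motif: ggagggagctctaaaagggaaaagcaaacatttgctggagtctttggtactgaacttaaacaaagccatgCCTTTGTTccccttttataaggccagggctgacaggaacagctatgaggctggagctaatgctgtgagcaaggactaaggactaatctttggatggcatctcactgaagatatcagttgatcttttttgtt
Krt8 and Krt18, chr15:101984211-101984411, no motif found: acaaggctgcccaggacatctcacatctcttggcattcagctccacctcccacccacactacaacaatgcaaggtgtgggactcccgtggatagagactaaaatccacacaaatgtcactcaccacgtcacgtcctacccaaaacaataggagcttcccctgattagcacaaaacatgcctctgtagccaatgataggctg
Epcam upstream, chr17:87603415-87603615, Sox motif: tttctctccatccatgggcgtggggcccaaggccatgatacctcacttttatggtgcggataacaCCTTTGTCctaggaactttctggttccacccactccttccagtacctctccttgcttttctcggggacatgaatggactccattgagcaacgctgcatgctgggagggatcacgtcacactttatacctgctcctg
Grhl2 upstream, chr15:37232158-37232358, no motif found: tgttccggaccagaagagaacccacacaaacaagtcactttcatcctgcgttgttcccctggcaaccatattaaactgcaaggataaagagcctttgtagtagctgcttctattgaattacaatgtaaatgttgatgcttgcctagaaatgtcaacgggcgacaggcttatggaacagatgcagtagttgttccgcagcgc
Cdh1 upstream, chr8:106602406-106602606, no motif found: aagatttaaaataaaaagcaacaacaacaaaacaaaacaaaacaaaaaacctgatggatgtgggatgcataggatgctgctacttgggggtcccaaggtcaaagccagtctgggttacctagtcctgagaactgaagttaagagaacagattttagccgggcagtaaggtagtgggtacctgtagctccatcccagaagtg
Grhl2 downstream, chr15:37386420-37386620, SoxOct motif: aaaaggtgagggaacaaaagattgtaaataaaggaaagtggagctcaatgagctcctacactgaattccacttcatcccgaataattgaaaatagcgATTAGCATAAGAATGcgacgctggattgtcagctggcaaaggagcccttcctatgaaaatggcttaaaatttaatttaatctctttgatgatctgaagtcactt
Krt8 repeat, chr15:101963205-101963405, no motif found: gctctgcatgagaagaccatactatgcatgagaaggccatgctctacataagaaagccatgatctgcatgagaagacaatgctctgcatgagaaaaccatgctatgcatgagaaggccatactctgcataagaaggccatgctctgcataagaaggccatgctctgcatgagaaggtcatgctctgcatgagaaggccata
Esrp1 downstream, chr4:11330578-11330778, MORE+1 motif: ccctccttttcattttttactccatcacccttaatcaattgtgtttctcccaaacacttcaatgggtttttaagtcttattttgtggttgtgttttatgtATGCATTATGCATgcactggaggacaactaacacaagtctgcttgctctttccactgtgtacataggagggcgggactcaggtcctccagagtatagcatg

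The 9 genes differed widely in how many summits their windows held. Grhl2 had 38 summits over 10 of the 13 libraries, Esrp1 24 in 7, Ocln 18 in 5, Krt8 14 in 6, Cdh1 13 in 5, Krt18 10 in 5, Cldn7 9 in 4, Epcam 7 in 6 and Cldn4 7 in 5. Per 100 kb of window, the order was Grhl2 with 16.5 summits, Esrp1 with 15.5, Krt8 with 12.99, Ocln with 11.5, Krt18 with 9.63, Cldn7 with 8.73, Cdh1 with 7.79, Cldn4 with 6.88 and Epcam with 6.08. The windows of Krt8 and Krt18 overlap, so a summit between them is counted for both. Oct4 S151M gave 51 of the 132 summits and was the only source at 43 of the 105 sites. Its list is the longest, with 101170 of the 227116 summits of the series. The share of all sites with Oct4 S151M alone was not counted.

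**Figure D1:**
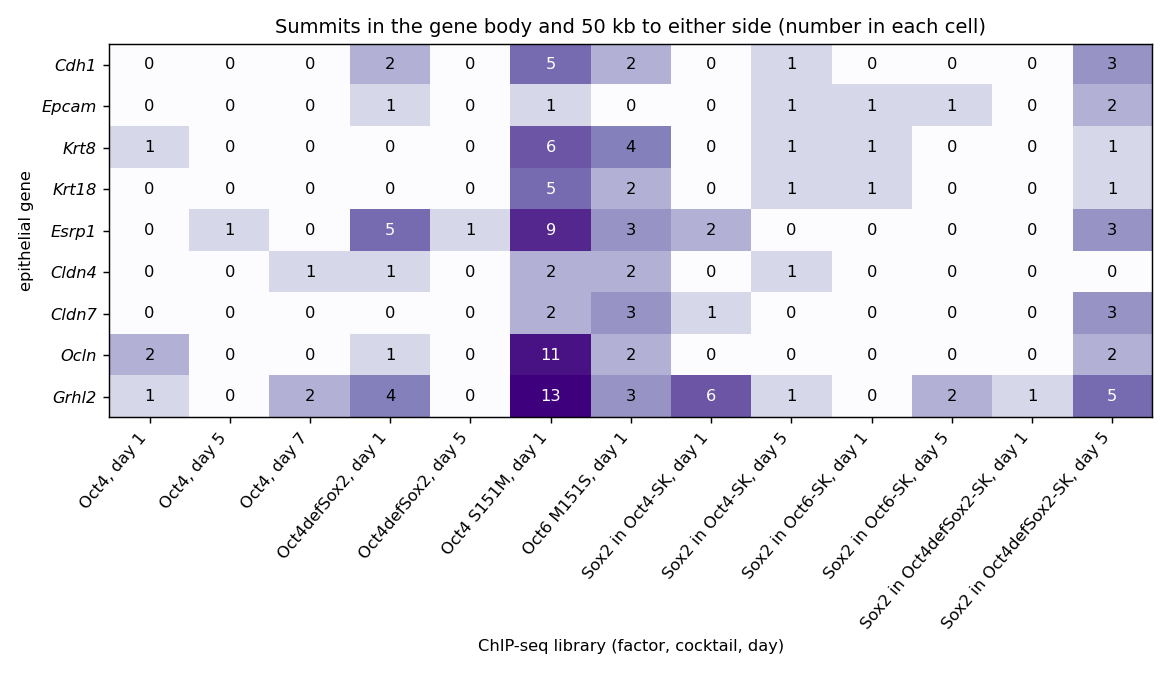
Number of summits in the gene body and 50 kb to either side for each of the 9 genes (rows) in each of the 13 libraries (columns, 1 library each); darker cells hold more. Oct4 S151M holds 13 summits at Grhl2 and 11 at Ocln, and wild-type Oct4 holds 0 at Cdh1, Epcam, Krt18 and Cldn7 on each day.

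Wild-type Oct4 had summits near 5 of the 9 genes over the 3 days, against 44.4% of coding genes. On day 1 it marked 3 genes (33.3%, exact 95% interval 7.49 to 70.1%), namely Ocln, Grhl2 and Krt8, where 29.8% of all coding genes had a summit. On day 5 it marked Esrp1 alone, 1 of 9, against 25.4% of coding genes. On day 7 it marked Cldn4 and Grhl2, 2 of 9, against 19% of coding genes. Cdh1, Epcam, Krt18 and Cldn7 had no Oct4 summit on any day, within the sensitivity of the calls. None of the 8 sites with wild-type Oct4 was called on more than 1 day. Over the whole lists, 24.5% of Oct4 summits of day 1 had one of day 5 within 100 bp. Of those of day 5, 25.2% had one of day 7. The share of all Oct4 sites called on more than 1 day was not counted.

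The other POU proteins were counted in the same way. Oct4defSox2 marked 6 of 9 genes on day 1 against 63% of coding genes, and on day 5 only Esrp1 against 6.62%. Oct4 S151M marked 9 of 9 against 90%. Oct6 M151S marked 8 of 9, all but Epcam (exact interval 51.8 to 99.7%), against 69%. The Oct6 M151S list was called at a looser threshold, with scores from 2.3 where the other lists began at 4.00 to 4.12, and 10 of its 19 summits here scored under 4. The score is the −log10 p-value at the summit. Only 4 of those 19 had q below 0.05. With the same minimum of 4 for this list, it marked 8 genes. With a minimum of 10, which 192 of its 22804 summits reached, it marked 0. The shares of coding genes at these 2 minimums were not counted, so these counts have no background beside them.

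Sox2 reached every one of the 9 genes in at least 1 of its 6 libraries, where 79.3% of coding genes were reached. In Oct4-SK cells, 3 of 9 genes held a Sox2 summit on day 1 (46.1% of coding genes) and 6 of 9 on day 5 (exact interval 29.9 to 92.5%, against 30% of coding genes). The day 5 count rests on 5 summits, since 1 lies in the windows of both keratin genes. In Oct6-SK cells the counts were 3 of 9 on day 1, from 2 summits for the same reason (10.5% of coding genes), and 2 of 9 on day 5 (14.3%). In Oct4defSox2-SK cells they were 1 of 9 on day 1 (18.6%) and 8 of 9 on day 5 (51.8 to 99.7%, against 66.1% of coding genes). Cldn4 was the gene without a summit in that last library. Over all 13 libraries 94.5% of coding genes had at least 1 summit, as did each of the 9.

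**Figure D2:**
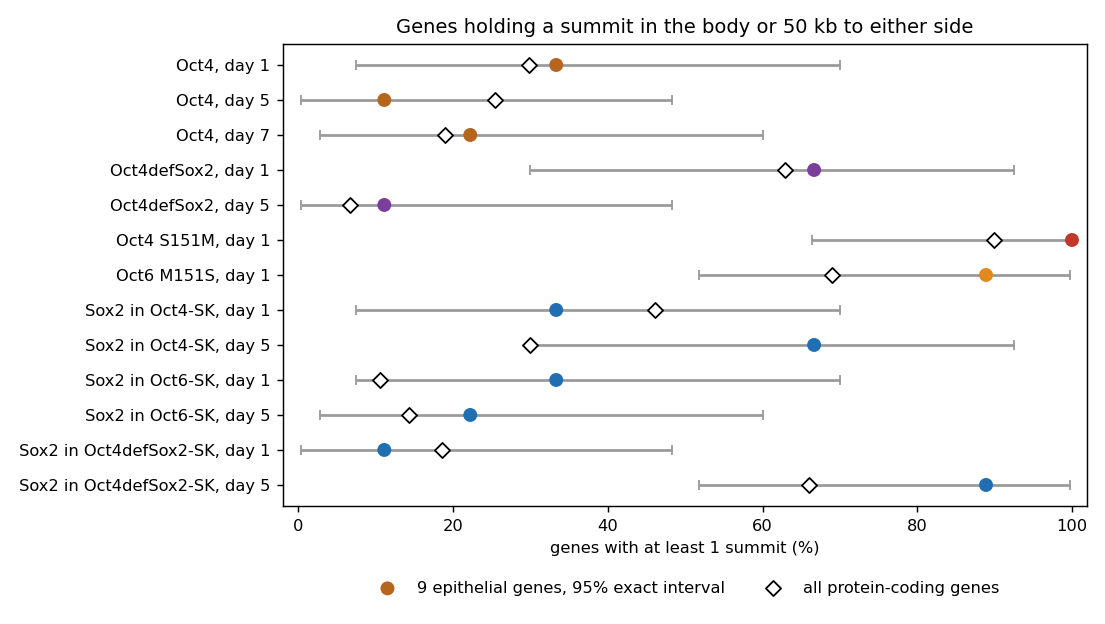
Percent of the 9 epithelial genes with at least 1 summit (filled circles, bars for exact 95% intervals) and of all 21938 protein-coding genes (open diamonds), by library, 1 library each; brown is Oct4, purple Oct4defSox2, red Oct4 S151M, orange Oct6 M151S and blue Sox2. The diamond lies inside the bar in each library, though for Sox2 in Oct4-SK on day 5 it is at the very end, 30% against a lower bound of 29.9%.

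Summit density was compared in the same way. The merged windows cover 1.16 Mb, and the density in them was divided by that over chromosomes 1 to 19, X and Y in the same library. For wild-type Oct4 the ratio was 1.14 on day 1 (Poisson 95% interval 0.311 to 2.93), 0.483 on day 5 and 1.94 on day 7, from 4, 1 and 3 summits. For Oct4defSox2 it was 1.06 on day 1, from 14 summits, and 2.26 on day 5, from 1 summit. Oct4 S151M gave 1.18 (0.879 to 1.55), from 51 summits. The intervals lay above 1 in 2 libraries. Oct6 M151S reached 1.95 (1.18 to 3.05), from 19 summits, and Sox2 in Oct4defSox2-SK on day 5 reached 2.06 (1.24 to 3.22), also from 19. The windows of all coding genes together had ratios of 1.23 in both of these libraries, so the second interval begins close to that value and the first includes it. The other Sox2 ratios were 1.38 and 2.02 in Oct4-SK on days 1 and 5, 1.44 and 2.63 for Oct6-SK, with 0.404 on day 1 of Oct4defSox2-SK. Their intervals included 1.

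**Figure D3:**
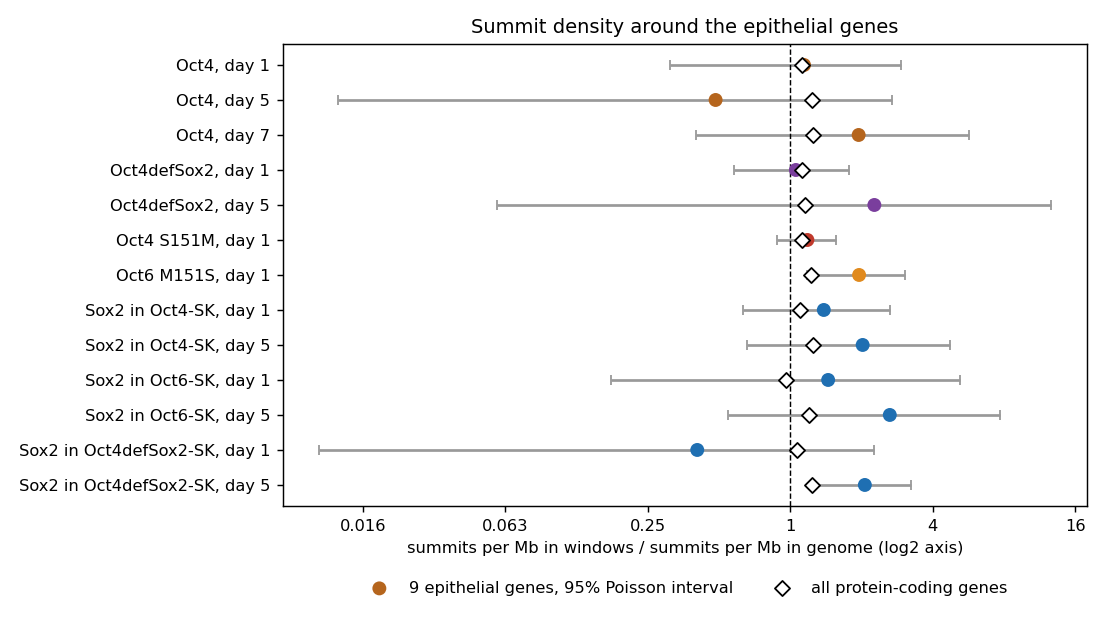
Summits per Mb in the windows of the 9 genes divided by summits per Mb of the genome (circles, log2 axis, bars for exact Poisson 95% intervals), and the same ratio for the windows of all coding genes (diamonds), by library; colours as for the factors above. Bars above 1 are those of Oct6 M151S and of Sox2 in Oct4defSox2-SK on day 5.

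Cdh1 (ENSMUSG00000000303.12, chr8:106603351-106670246, plus strand) encodes E-cadherin and held 13 summits. Oct4defSox2 on day 1 had 2 of them, both in Cdh1 introns, with scores of 7.87 and 8.11. Sox2 in Oct4-SK had no summit here on day 1 and 1 on day 5, in an intron 28472 bp from the nearest annotated start, with a score of 9.78. That Sox2 summit lies on a Sox motif, and an Oct4defSox2 summit of day 1 was called 112 bp away, just beyond the merging distance. Sox2 in Oct4defSox2-SK on day 5 had 3 summits with scores of 5.95 to 10.1, all outside the gene body. Oct4 S151M had 5, of which 1 scored 78.0 and lay 111425 bp downstream of the start, inside an intron of Tango6. Another, 665 bp past the 3′ end of the gene, lay near a perfect match to MORE, the palindrome on which POU proteins pair, and scored 38.3. The only summit within 1 kb of the start came from Oct6 M151S. It lay 845 bp upstream, in the Cdh1 sequence shown, with a score of 4.22 and a fold enrichment of 2.56. Its q was not below 0.05 (−log10 q 0.957).

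Epcam (ENSMUSG00000045394.9, chr17:87635979-87651129, plus strand) was the gene on which Sox2 summits outnumbered those of the POU proteins, 5 to 2. The upstream site shown, 32464 bp before the start, was called for Sox2 in Oct4-SK on day 5 (score 10.4) and in Oct6-SK on day 1 (4.24) and day 5 (8.15). It holds a Sox motif 32 bp from the top summit. In Oct4defSox2-SK the Sox2 summits lay elsewhere, at 22454 bp upstream (15.3) and past the gene (4.18). Oct4defSox2 on day 1 and Oct4 S151M met at a site 12 kb upstream, with scores of 14.6 and 40.7, at a SoxOct match with 2 mismatches.

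Krt8 (ENSMUSG00000049382.10, chr15:101996698-102004482, minus strand) and Krt18 (ENSMUSG00000023043.7, chr15:102028180-102032027, plus strand) encode partner keratins. The strongest wild-type Oct4 summit near any of the 9 genes lay 41177 bp downstream of the Krt8 start, between Krt8 and Krt78. It scored 69.7 on day 1, rank 118 of 8216, and Oct4 S151M scored 314.9 at the same site, rank 2138 of 101170 with a fold enrichment of 54.9. The Krt8 repeat sequence repeats itself with a period of 20 bp, at which 84.5% of its bases are equal. It holds 7 copies of TGCATGA, counted on both strands, a string that was chosen after seeing the sequence. At least 1 copy occurs in 6.41% of all sites, and this is the only 1 of 172804 with as many as 7. The part that read mapping in a repeat plays in these scores was not tested.

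Sox2 had its own site near the keratins, the Krt8 and Krt18 sequence shown, 20171 bp downstream of the Krt8 start. It scored 15.3 in Oct4-SK on day 5, 6.01 in Oct6-SK on day 1 and 44.9 in Oct4defSox2-SK on day 5. The last is rank 484 of 21563. No POU protein was called there. Oct4 S151M had a summit of 118.1 at 26593 bp downstream of the Krt18 start, with a TGAGTCA match, the AP-1 motif, 21 bp from it.

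Cldn4 (ENSMUSG00000047501.3, chr5:134945119-134946934, minus strand) had the wild-type Oct4 summit closest to a start of one of the 9 genes. On day 7 Oct4 scored 19.6 at 3936 bp downstream of the start, past the 3′ end of this short gene, rank 557 of 3638. Oct4defSox2 had a summit 13 bp from it on day 1, with a score of 11.3. Neither Oct4 on days 1 and 5 nor Oct4 S151M was called at that site. Sox2 in Oct4-SK had 1 summit, on day 5, in an intron of Mettl27 (8.87).

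Cldn7 (ENSMUSG00000018569.12, chr11:69964779-69967885, plus strand) lies among 10 other coding genes that start in its window, and none of its 9 summits had a Cldn7 start as the nearest coding start. The nearest coding starts were those of Eif5a, Ybx2, Ctdnep1, Gabarap and Dvl2. The best Oct6 M151S score near any of the 9 genes, 5.81, was here at 39033 bp upstream. Sox2 in Oct4defSox2-SK on day 5 had 3 summits of 8.62 to 14.3.

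Ocln (ENSMUSG00000021638.12, chr13:100496507-100552718, minus strand), which encodes occludin, held 2 wild-type Oct4 summits on day 1. One scored 11.3 in an intron of Gtf2h2, and the other 7.81 in an Ocln intron. Oct4 S151M was called within 100 bp of both, with 27.9 and 10.4, and had 11 summits in the window. Oct6 M151S scored 4.17 in the 5′ UTR, 32 bp from the Ocln start, with a q that was not below 0.05 (−log10 q 0.957). Sox2 had 2 summits, both in Oct4defSox2-SK on day 5 (4.18 and 7.74).

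Esrp1 (ENSMUSG00000040728.15, chr4:11331933-11386783, minus strand) held the single wild-type Oct4 summit of day 5, with a score of 6.03, but this lay 84 bp upstream of the start of Dpy19l4 and 64458 bp from that of Esrp1. Oct4defSox2 on day 1 had 5 summits of 6.41 to 12.1. The strongest summit of any library near the 9 genes was that of Oct4 S151M at 56001 bp downstream of the Esrp1 start, just past its 3′ end. It scored 578.1, rank 617 of 101170, with a fold enrichment of 74.9, and its sequence has a MORE+1 match without mismatch 6 bp away. MORE+1 is MORE with 1 more base between the half-sites. Sox2 in Oct4defSox2-SK on day 5 had a summit of 7.24 in the 5′ UTR, 19 bp from the start.

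Grhl2 (ENSMUSG00000022286.16, chr15:37233036-37363569, plus strand) had 4 of the 6 sites shared by 3 or more libraries. The Grhl2 intron site, 84971 bp downstream of the start, was called in 5 Sox2 libraries and in no POU library. Its score was 7.74 on day 1 and 26.4 on day 5 for Oct4-SK, 15.6 on day 5 for Oct6-SK, then 9.46 on day 1 and 75.2 on day 5 for Oct4defSox2-SK. Scores depend on depth, and the ranks within each library are given for orientation. They were 6992 of 15222 and 217 of 5832 for Oct4-SK, 282 of 2673 for Oct6-SK, 2662 of 5794 and 110 of 21563 for Oct4defSox2-SK. The corresponding percentiles were 88.7 to 99.5 for the day 5 summits and 53.5 and 54.0 for those of day 1. A percentile depends on how many summits were called, and the lists differ in length, so these values are not a comparison of binding between days. The site is also where the highest-scoring Sox2 summit near the 9 genes lay in 4 of the 6 Sox2 libraries, of which Oct4defSox2-SK on day 1 had no other summit near them. An Oct4defSox2 summit of day 1, with a score of 24.5, lay beside it, just beyond the merging distance.

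The Grhl2 downstream site, 153484 bp from the start and inside an intron of Ncald, joined POU proteins and Sox2. Wild-type Oct4 on day 7 scored 16.3, Oct4defSox2 on day 1 26.5, Oct4 S151M 28.0, Oct6 M151S 5.26 and Sox2 in Oct6-SK on day 5 9.21. It was the highest-scoring Oct4defSox2 summit near the 9 genes. Its SoxOct match, the joined Sox and octamer half-sites, has 1 mismatch and lies 4 bp from the top summit. Wild-type Oct4 was not called there on days 1 and 5, nor was Sox2 in Oct4-SK. The third site, 106758 bp from the start, held Oct4defSox2 on day 1 (8.64), Oct4 S151M (4.84), Sox2 in Oct4-SK on day 1 (6.22) and Sox2 in Oct4defSox2-SK on day 5 (25.8). The fourth, 139064 bp from the start, held Oct4 on day 7 (7.62), Oct4defSox2 on day 1 (6.41), Oct4 S151M (11.9) and Sox2 in Oct4defSox2-SK on day 5 (14.3). Upstream of Grhl2, 778 bp before the start, the only summit was that of Sox2 in Oct4defSox2-SK on day 5 (10.1), in the sequence shown.

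**Figure D4:**
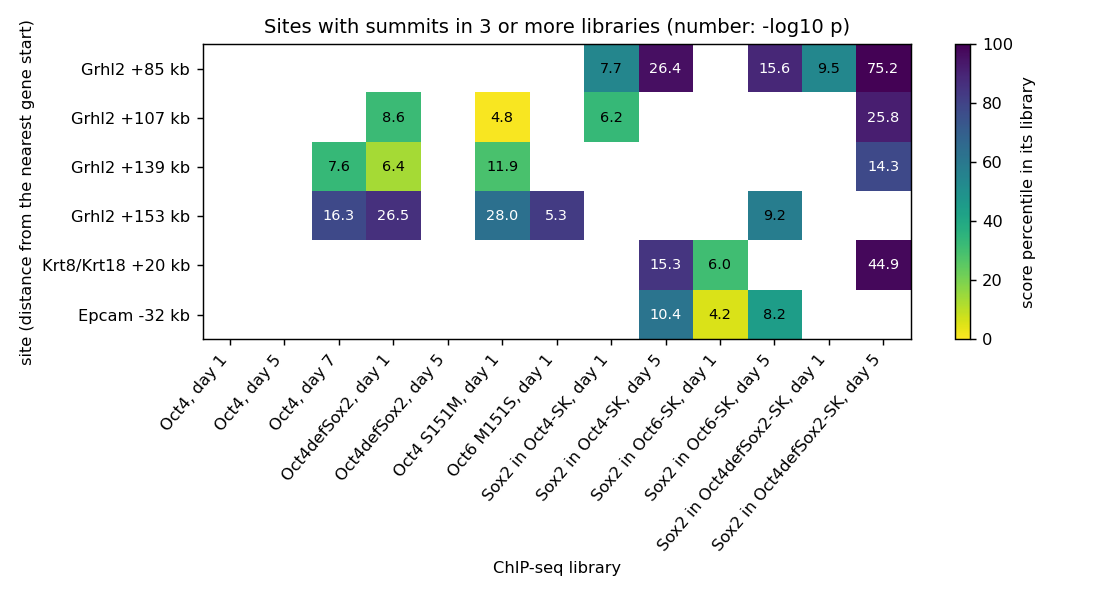
Sites with summits in 3 or more libraries (rows, named by gene and rounded distance from the nearest of the 9 gene starts) by library (columns, 1 each); the number is the −log10 p score, the colour its percentile in that library, and white means no summit. Of the 6 rows, 4 belong to Grhl2, and its top row is filled by Sox2 alone, at 7.74 to 75.2.

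The windows reach 50 kb beyond each gene body, so few of their bases lie near a start. Distances were not counted for other genes. Of the 132 summits, 4 lay within 1 kb of an annotated start of the 9 genes, 7 from 1 to 10 kb, 62 from 10 to 50 kb and 59 farther away. The 4 within 1 kb had scores of 4.17 to 10.1. They were 2 of Oct6 M151S (Cdh1 and Ocln), neither with q below 0.05, and 2 of Sox2 in Oct4defSox2-SK on day 5 (Grhl2 and Esrp1). Of the 105 sites, 53 were in introns, 42 between genes and 10 in exons or UTRs. Within 1 kb of the start of any coding gene there were 13. The same shares over all sites of the series were not counted. For 68 the nearest coding start was that of a gene other than these 9, so the assignment to an epithelial gene rests on the 50 kb rule.

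**Figure D5:**
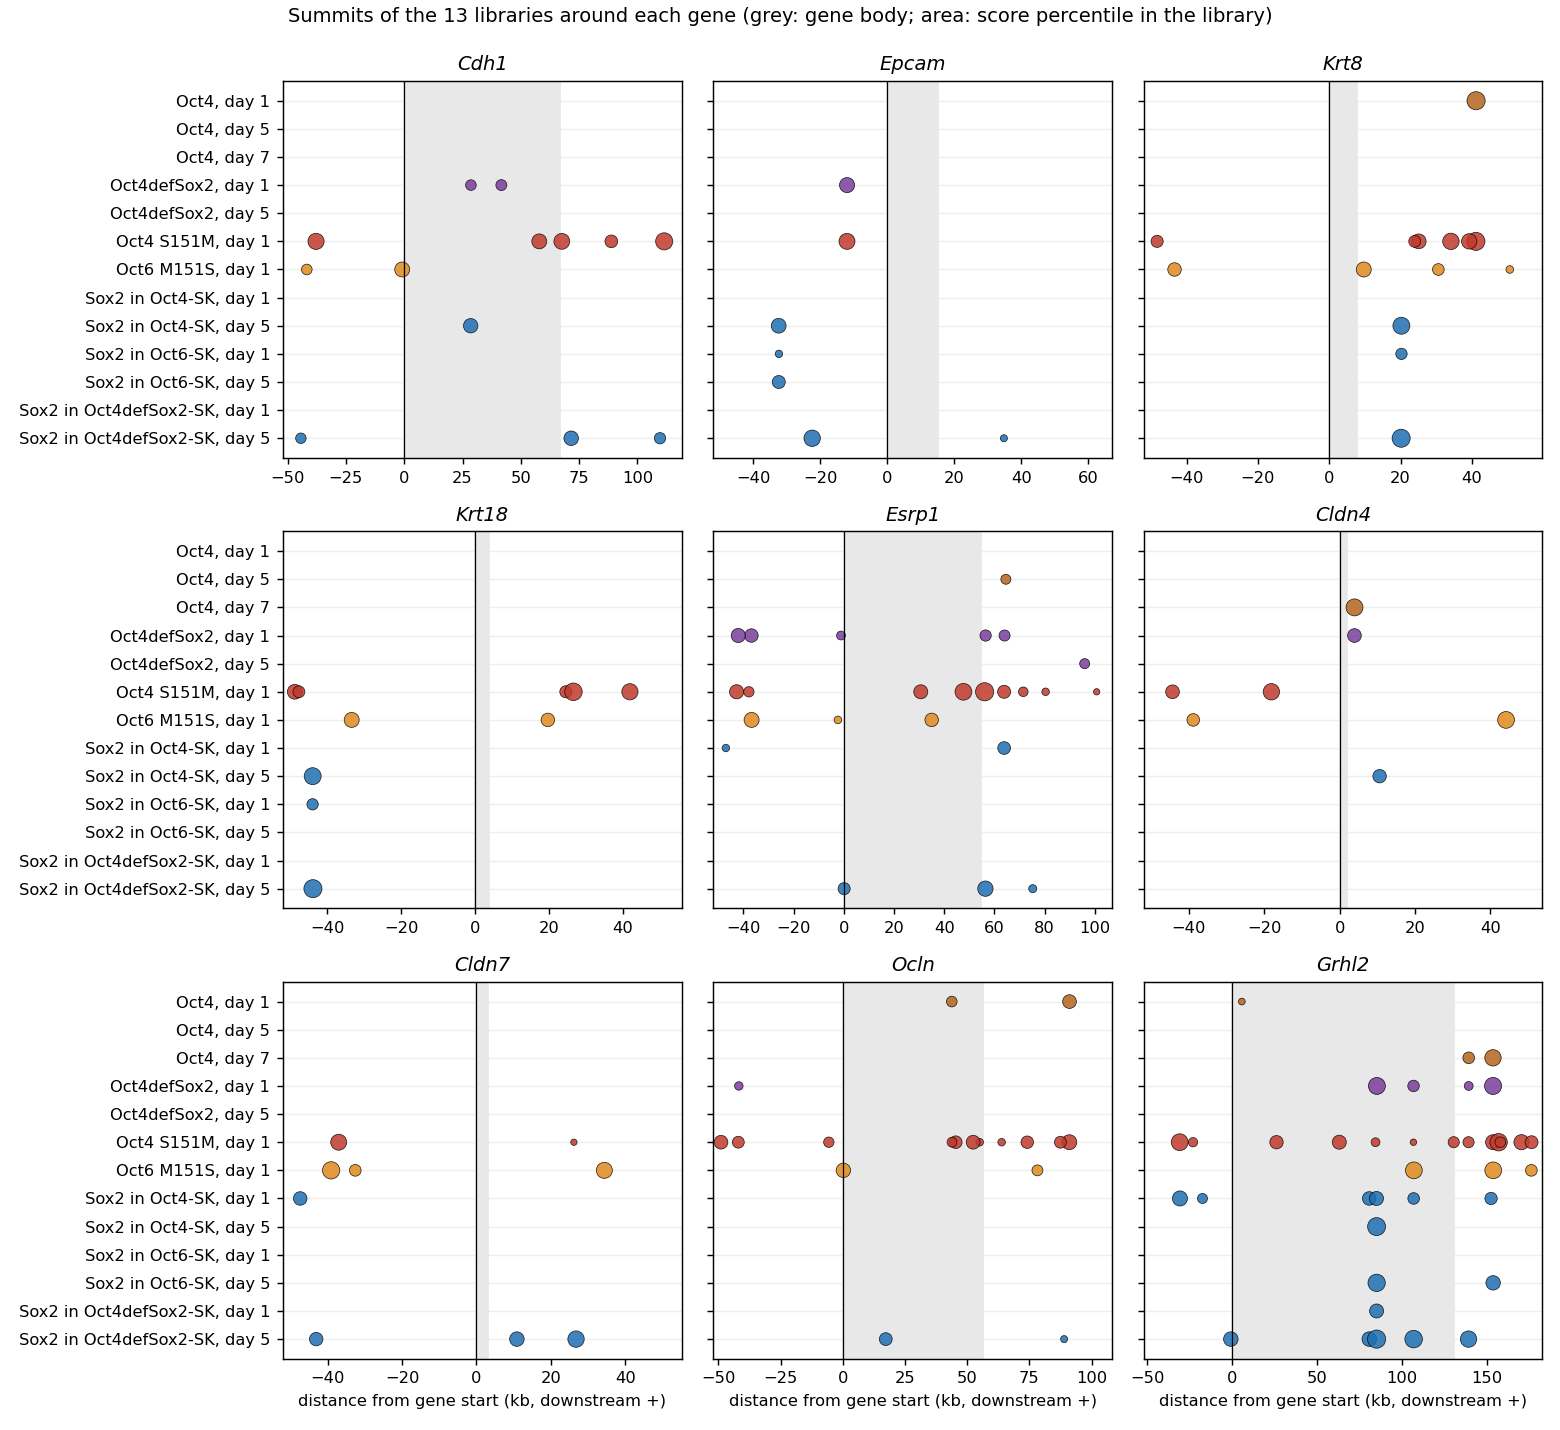
Summits around each of the 9 genes by library (rows) and distance from the gene start in kb, positive downstream along the gene's strand; grey is the gene body, and larger points have a higher score percentile in their library. Around Grhl2 points of several libraries stack at 4 positions inside and beyond the gene, whereas around Cdh1 and Cldn7 they are scattered.

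Sharing between pairs of libraries was counted as summits of the first with one of the second within 100 bp. Of the 4 Oct4 summits of day 1, 0 had an Oct4 summit of day 5 (24.5% over all Oct4 day 1 summits), 0 had one of Oct4defSox2 on day 1 (57.4%) and 0 one of Sox2 in the same cells (19.8%). By contrast 3 of the 4 had an Oct4 S151M summit (exact interval 19.4 to 99.4%, against 78.2% over all). The 1 Oct4 summit of day 5 had no partner on day 7 (25.2% over all). Of the 14 Oct4defSox2 summits of day 1, 3 coincided with Oct4 S151M (43.5% over all) and 0 with Sox2 in the same cells (8.73%). Of the 9 Sox2 summits of Oct4-SK on day 1, 1 was found again on day 5 (7.23% over all), the Grhl2 intron site. Of the 5 of day 5, 2 coincided with Sox2 in Oct6-SK (16.6%) and 2 with Sox2 in Oct4defSox2-SK of that day (38.3%). Between days 1 and 5, 1 of 2 Sox2 summits was found again with Oct6-SK (10.1% over all) and 1 of 1 with Oct4defSox2-SK (32.7%). With denominators this small, the exact intervals of these counts include the shares over all; for 0 of 4 the interval runs up to 60.2%.

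Motifs of the factors were sought in the 201 bp around each site on both strands. SoxOct was allowed 2 mismatches, and MORE and MORE+1 were allowed 1. A POU motif of any kind was found at 13 of 105 sites (12.4%, Wilson 95% interval 7.38 to 20.04%), against 21.8% of all sites. In windows lying 2 kb away it was found in 0.952% of the 210 near these sites and in 3.27% of those near all sites. The share at the 105 sites depends on the settings, as does that of all sites. It was 2.86% with 1 mismatch fewer (7.46% of all sites) and 36.2% with 1 more (50.2%). Among the 57 sites with a score of at least 10 it was 21.1%, against 30.9% of all such sites. MORE or MORE+1 was found at 10 sites (9.52%, against 14.5% of all sites), of which 9 held an Oct4 S151M summit. These are 9 distinct matches, since the site without that summit lies beside one of the others and shares its match. SoxOct was found at 3 sites (2.86%, against 4.42%), and all 3 held one as well. With a score of at least 10, MORE or MORE+1 was at 9 of 57 sites (15.8%, against 22.1% of all such sites) and SoxOct at 3 (5.26%, against 5.58%). Oct4 S151M had a summit at 51 of the 105 sites. The octamer ATGCAAAT, which is part of the SoxOct string and shares its start with half-sites of MORE, was found at 0 sites, which allows a share of up to 2.86% (3 sites of 105; the Wilson interval reaches 3.53%), against 5.1% of all sites. The Sox motif (CCATTGT or CCTTTGT followed by any base but A) was found at 12 sites (11.4%, against 9.91% of all sites and 5.71% of windows 2 kb away), and 8 of the 12 held a Sox2 summit, as did 29 of all 105 sites. The AP-1 motif TGANTCA, with C or G in the middle, was found at 10 sites (9.52%, against 8.09%). A KLF motif (GGGCGGGGC, GGGCGTGGC, GGGTGGGGC or GGGTGTGGC) was found at 4 sites (3.81%, Wilson interval 1.49 to 9.39%). All sites had 1.67%, and the windows 2 kb away had 2.38%. No motif of these was found at 68 sites. Of the 132 summits, 29.5% fell on bases soft-masked as repeats in the assembly, against 24.8% of all summits and 35.3% of the genome. For Oct4 S151M it was 23 of 51, against 33.4% of its whole list. For Oct6 M151S it was 5 of 19 (18.2% of its list), and for Sox2 in Oct4defSox2-SK on day 5 it was 6 of 19 (16.2%). Shares below those of the list were found for Oct4defSox2 on day 1, with 2 of 14 (17.8%), and Sox2 in Oct4-SK on day 1, with 1 of 9 (20.9%). The other libraries had fewer summits here.

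Other epithelial genes were counted in the same way. The list held 36 genes of junctions, keratins, polarity and epithelial regulators, among them Cdh3, Cldn3, Ovol1 and Tjp1. Wild-type Oct4 had a summit near 10 of the 36 on day 1, 8 on day 5 and 7 on day 7, or 27.8, 22.2 and 19.4%, against 29.8, 25.4 and 19% of coding genes. Oct4defSox2 was near 24 on day 1 (66.7%, against 63%) and 0 on day 5 (against 6.62%). Oct4 S151M was near 33 (91.7%, against 90%) and Oct6 M151S near 27 (75%, against 69%). For Sox2 with Oct4-SK the counts were 17 on day 1 (47.2%, against 46.1%) and 12 on day 5 (33.3%, against 30%), a lower count on day 5 where the 9 genes had a higher one. With Oct6-SK they were 3 on day 1 (8.33%, against 10.5%) and 7 on day 5 (19.4%, against 14.3%), where the 9 genes had 3 genes from 2 summits and then 2 genes from 3 summits. With Oct4defSox2-SK they were 8 on day 1 (22.2%, against 18.6%) and 30 on day 5 (83.3%, against 66.1%).

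Among 6 repressors of epithelial genes, Snai1, Snai2, Zeb1, Zeb2, Twist1 and Twist2, wild-type Oct4 had a summit near 4 on day 1, 5 on day 5 and 0 on day 7. Coding genes had shares of 29.8, 25.4 and 19% on those days. Oct4defSox2 was near 3 on day 1 and 0 on day 5, with shares of 63 and 6.62% of coding genes. Oct4 S151M was near 6, with a share of 90%, and Oct6 M151S near 4, with 69%. Sox2 with Oct4-SK was near 4 on day 1 and 1 on day 5, with 46.1 and 30% of coding genes. With Oct4defSox2-SK it was near 0 on day 1 and 5 on day 5, where the coding-gene shares were 18.6 and 66.1%. With Oct6-SK it was near 0 on both days, with shares of 10.5 and 14.3%. With 6 genes and 1 library a day these counts are descriptive.

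Which libraries had a summit was compared between each of the 9 genes and the other 50 genes of these lists as the share of libraries with a summit in both among those with one in either. Grhl2 was most like Tjp1 (0.909), a scaffold of tight junctions, with 10 libraries shared of 11. Ocln had the same 5 libraries as Ap1m2, and Cldn7 the same 4 as Tjp3 and Snai2, each a likeness of 1. Cdh1 was most like Cldn3 and Prss8 (0.833), and Epcam most like Prss8 (0.714). Krt8 and Krt18 were closest to each other (0.833), Krt18 as close to Prss8, and Cldn4 to Cldn3 (0.833), but these pairs, Prss8 apart, have overlapping windows. Esrp1 was equally like F11r, Zeb1 and Zeb2 (0.75). The libraries with long lists hold most genes, so part of each likeness is shared with any gene.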

How the data were processed

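ChIP-seq was made from 13 immunoprecipitated samples and 3 inputs, with 1 sample per group. According to the study's methods, the authors aligned paired-end reads to mm10 with Bowtie2 (2.2.5 in the submitters' processing notes), removed low-quality alignments and duplicates, and called peaks per library with MACS2. The deposited summit scores are −log10 p-values, unscaled between libraries. The peak lists deposited for the position-swap proteins, Oct6 M151S and Oct4 S151M, add the fold enrichment and the −log10 q-value given by the authors' caller. Read counts were not used here, and the inputs have no file here.

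Summits within 50 kb of a gene body were counted with Python 3.11.15, numpy and pandas. The members and lists were chosen with earlier results of these data known. With 1 library per group no test was run. Shares have exact binomial or Wilson 95% intervals and densities exact Poisson ones. The code was tested on simulated data, where it found 1400 of 1400 planted motifs and 1000 of 1000 planted shared summits. Sites named were the one with most libraries per gene, those within 1 kb of a start and each library's highest score; further sites in the gene paragraphs were chosen after their values were seen. Alternatives changed the flank (25 or 100 kb, or the start only), the score minimum (10, or 4 for Oct6 M151S), the list length, the distance, the motif window and the mismatches.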

Additional observations from a re-analysis of the deposited data

Results flagged for a closer look

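With every called summit counted, the change in Sox2 summits near the 9 genes from day 1 to day 5 had opposite signs in the cocktails. The difference, day 5 minus day 1, was -4 with Oct4-SK (9 and 5 summits), 1 with Oct6-SK (2 and 3) and 18 with Oct4defSox2-SK (1 and 19). The opposite signs did not hold at other settings. With a score of at least 10 the counts of days 1 and 5 were 0 and 3 with Oct4-SK, 0 and 1 with Oct6-SK, and 0 and 11 with Oct4defSox2-SK. With the 1038 strongest summits of each library they were 0 and 2, 0 and 1, and 0 and 2. With every summit counted, the signs of the smaller changes also depended on Grhl2. Without it the differences were 1 with Oct4-SK (3 and 4 summits), -1 with Oct6-SK (2 and 1) and 14 with Oct4defSox2-SK (0 and 14). Leaving out Grhl2 was an alternative chosen after seeing the data. With Oct4-SK the genes holding a Sox2 summit were 3 on day 1 and 6 on day 5, and the density ratios 1.38 and 2.02. The difference between cocktails was not tested, since each is 1 library a day. The whole lists differed between the days in the same direction as the counts of every summit with Oct4-SK (15222 and 5832 summits) and with Oct4defSox2-SK (5794 and 21563). They differed in the opposite direction with Oct6-SK (3242 and 2673). At a score of at least 10 the whole lists held 4520 and 2466 with Oct4-SK, 590 and 947 with Oct6-SK, and 2315 and 9618 with Oct4defSox2-SK. Their part in these counts was not tested.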

How the results depend on the processing

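Of 228 alternative values, 175 stayed inside the 95% interval of the reported value and 53 did not; 13 gave no value because no summit was left. Most of the 53 are counts of 0 against small counts, an outcome of shorter lists or smaller windows. With the start only, the genes held and the density ratio became 0 for Oct4 on day 5, Oct4defSox2 on day 5 and Sox2 in Oct4defSox2-SK on day 1, and the ratio of Oct4 S151M became 0.851. Within 25 kb both became 0 for Oct4defSox2 on day 5. With a score of at least 10 both became 0 for Oct4 on day 5, Oct4defSox2 on day 5, Oct6 M151S, and Sox2 on day 1 in each of its 3 cocktails. With the 1038 strongest summits of each library both became 0 for Oct4 on day 5, Oct4defSox2 on day 1, Oct6 M151S and the same 3 Sox2 libraries of day 1; Oct4 S151M then held 1 gene at a ratio of 2.26, and Sox2 in Oct4defSox2-SK on day 5 held 3 at 4.51. Within 100 kb that last library held 9 genes. With a minimum score of 4, Oct6 M151S was near 8 genes at a ratio of 2.14, against 8 and 1.95. Sharing of Oct4 on day 1 with Oct4 S151M became 100% with a score of at least 10. Sharing of Sox2 in Oct4-SK with Oct4defSox2-SK on day 1, and between days 1 and 5 of Oct6-SK or of Oct4-SK, became 0% within 50 bp and with equal numbers. One mismatch fewer or more gave 0.952 or 13.3% for SoxOct, 1.90 or 26.7% for MORE or MORE+1 and 2.86 or 36.2% for any POU motif, which was 21.1% at sites with a score of at least 10. AP-1 became 3.81% within 50 bp. Without Grhl2, chosen after seeing the data, the day 5 minus day 1 difference in Sox2 summits reversed to 1 with Oct4-SK and to -1 with Oct6-SK. With Grhl2 kept, the Oct4-SK count was also higher on day 5 with a score of at least 10 and with equal numbers. No paired analysis was possible because each group is 1 library. Depth limits each absence of a summit.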
